A study of Homo sapiens with 5 samples.

Results

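The 9 genes examined here are the interferon-stimulated genes IFIT1, IFIT2, IFIT3, ISG15, OAS1, MX1 and IFI6 and the cytosolic RNA sensors DDX58 (RIG-I) and IFIH1 (MDA5). They were chosen by gene symbol and not by their values, though with earlier results of these data known. The question was whether plasmid or guide RNA transfection was accompanied by innate immune gene expression in HEK293T cells. Of the 19716 genes with a read in at least 1 library, 8 were members of this group, 7 of them had a read in every library, and OAS1 had none. HEK293T cells derive from human embryonic kidney and express the large T antigen of SV40.

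RNA from 5 cultures was sequenced, with 1 library per group. The 4 fusion groups received 5 sgRNAs against the promoter of uPA together with a dCas9-BFP fusion to DNMT1, DNMT3A, DNMT3B or EGFP, and are called here by that partner. dCas9 is a Cas9 that binds DNA through its guide without cutting it, BFP is a blue fluorescent protein used for sorting, the DNMT parts are catalytic domains of DNA methyltransferases, and EGFP is a fluorescent protein without that activity. The control group received pUC19, a bacterial plasmid without dCas9 or sgRNA. All 5 cultures were transiently transfected with 1 ug of plasmid in X-tremeGENE 9 and harvested at 48 h, so cells without plasmid were not analysed here and the response to plasmid as such cannot be told apart from the resting level. Guides were present in every fusion library and in no pUC19 library, so guide, dCas9 and the fluorescent sort cannot be told apart either. The labels give a BFP-positive sort for every group, although pUC19 encodes no BFP.

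In the innate response, RIG-I and MDA5 detect foreign RNA in the cytosol and signal through the adaptor MAVS to kinases that activate IRF3, which switches on type I interferon genes. Secreted interferon binds its receptor and activates a transcription factor complex that includes IRF9 and binds the interferon-stimulated response element in the promoters of interferon-stimulated genes. Transfected DNA can enter the same pathway through cGAS and STING, a route known to be weak in the HEK293 lineage.

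The response element is the sequence feature that links these genes, and the stretches that hold it are shown for the members with reads on which the results turn. Its core, GAAA followed by 2 bases of any kind and another GAAA, and a longer form in which CT follows the core were searched on both strands of RefSeq promoter windows, which run from 250 bases before to 50 bases after each start site in the reference table (build GRCh38.p14). The core was in 3.57% of 35116 windows and the longer form, which contains the core, in 0.273%. RefSeq windows were found for 8 of the 9 members, IFIT2 being the exception. The core was in 6 of these members (8 of 11 windows) and the longer form in 5 (6 of 11 windows). The sequences below are printed from the strand of the gene, 5′ to 3′, with every base of a match on either strand in capitals, and each was placed by its unique exact match in GRCh37, the build of the data.
IFIT1 chr10:91152254-91152294, plus strand: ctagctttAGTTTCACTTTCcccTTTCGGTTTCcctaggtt
IFIT3 chr10:91087590-91087649, plus strand: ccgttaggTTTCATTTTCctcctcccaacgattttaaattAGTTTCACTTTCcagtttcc
ISG15 chr1:948756-948789, plus strand: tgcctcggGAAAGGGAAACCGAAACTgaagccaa
IFI6 chr1:27998777-27998867, minus strand: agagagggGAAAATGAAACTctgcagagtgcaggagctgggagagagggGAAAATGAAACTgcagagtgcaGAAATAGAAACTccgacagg
IFIH1 chr2:163175330-163175361, minus strand: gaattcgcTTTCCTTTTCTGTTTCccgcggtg

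IFIT1 held the longer form from -118 to -107 relative to its start site and a core from -103 to -94, both on the opposite strand. IFI6 held 3 copies of the longer form between -156 and -82. In ISG15 a core and the longer form overlapped between -113 and -96. IFIH1 held 3 cores and no longer form, and the upstream pair is printed above. OAS1 and DDX58, which RefSeq lists as RIGI, held neither form in these windows. GENCODE v44 places the IFIT1 stretch inside the extent of LIPA, a gene of the opposite strand, with no exon there. The IFIT3 stretch lies in introns of longer IFIT3 and LIPA transcripts, the ISG15 stretch in introns of longer ISG15 transcripts, the IFI6 stretch in an intron of a long non-coding RNA gene of the opposite strand, and the IFIH1 stretch overlaps an exon of GCA, also of the opposite strand. A match is a description of the letters and not of binding.

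**Figure D1:**
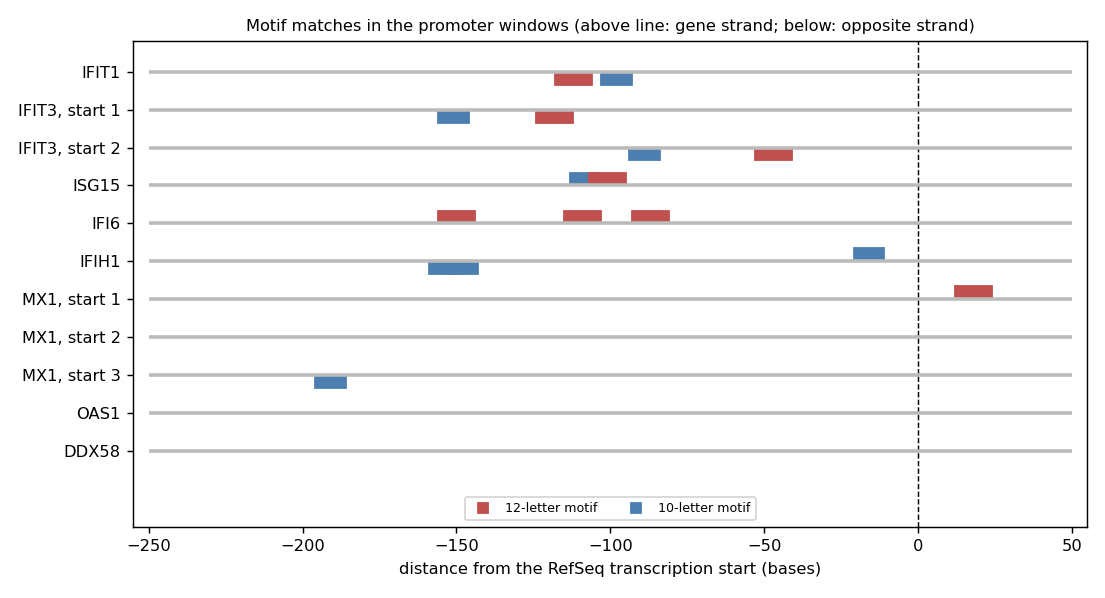
Positions of the response-element matches in the promoter windows of the 8 members that have one. The x axis is the distance from the RefSeq start site in bases, each grey line is 1 window, red boxes are the 12-letter form and blue boxes the 10-letter core outside it, drawn above the line for the gene's strand and below it for the opposite strand. IFIT1, IFIT3, ISG15 and IFI6 hold the 12-letter form upstream of the start, MX1 holds it downstream from 12 to 23, and OAS1 and DDX58 hold no match.

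The libraries held between 26250000 and 36140000 reads assigned to genes (to the nearest 10000), with pUC19 the deepest, and 3 reads corresponded to 0.083 to 0.114 reads in 1000000. The plasmid-encoded domain was seen in the library of each methyltransferase fusion, for example as 14582 TPM on DNMT1 in the DNMT1 library against 156 to 175 TPM in the other 4. TPM is a transcript level per length, brought to the same sum in each library. All 8 human embryonic kidney cell markers fixed for this check were detected, with vimentin (VIM) at 437 to 599 TPM, and the blood cell markers CD3E and MS4A1 had no reads, while PTPRC stayed at or below 0.219 TPM. The summed level of the 13 blood markers was 15.7 to 20.0 TPM. The neurofilament genes NEFM and NEFL, which HEK293 cells express, were lower in the 4 fusion libraries than in pUC19 (34.3 to 60.2 against 193 TPM for NEFM and 28.9 to 35.6 against 90.7 TPM for NEFL). The part of this difference in the results below was not tested.

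The 9 genes were expressed at low levels in all 5 libraries. Their summed level was 29.6 TPM in the DNMT1 library, 31.2 in DNMT3A, 27.7 in DNMT3B, 30.0 in EGFP and 30.8 in pUC19. IFI6 alone contributed more than any other member in every library. By mean TPM over the 5 libraries the order was IFI6 (17.5), ISG15 (5.14), DDX58 (2.65), IFIT1 (2.36), IFIT3 (1.56), IFIH1 (0.539), IFIT2 (0.0842), MX1 (0.0208) and OAS1 (0). In the DNMT1 library IFIT1 stood above DDX58, and in the other 4 libraries DDX58 stood above IFIT1, with overlapping intervals in DNMT3A, EGFP and pUC19. IFI6 lay at the 62.1st percentile of all genes by mean TPM and IFIT2 at the 11.4th. The intervals given below are 95% exact (Clopper-Pearson) intervals that describe the sampling of reads alone. Ratios and their intervals are on the TPM scale, whereas the exact test uses the read totals of the libraries. A ratio with its interval and the p-value beside it can therefore differ somewhat. PCR reads are not independent molecules, so the true error is larger.

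**Figure D2:**
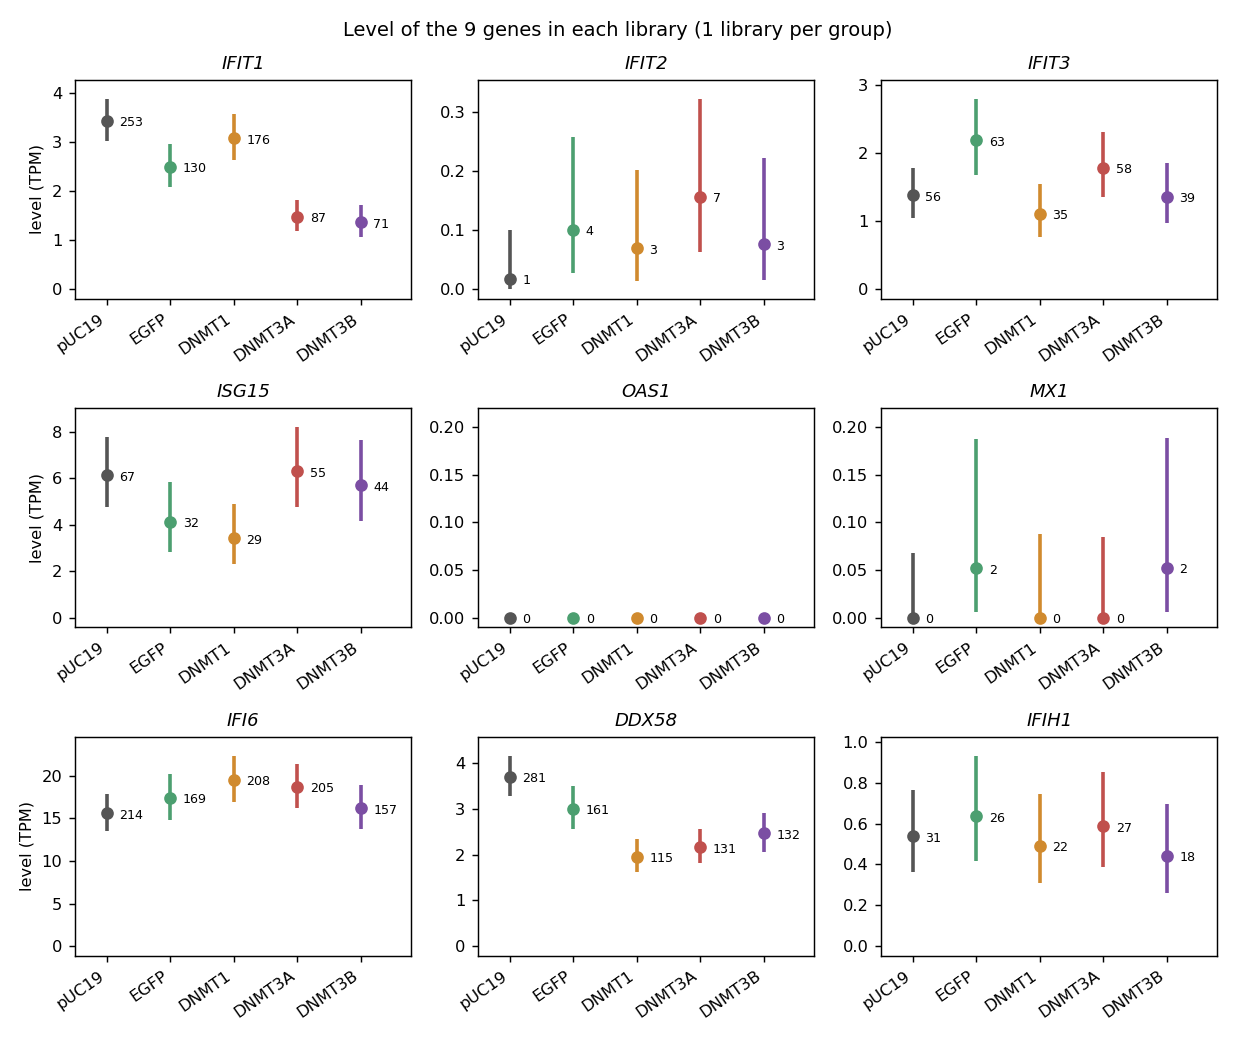
Level of each of the 9 genes in the 5 libraries, in TPM on a linear axis with its own scale per gene. Points are library values, bars are 95% exact intervals for read sampling, and the small numbers are reads. IFIT1 was highest in pUC19 (253 reads) and lowest in DNMT3B (71 reads), DDX58 was highest in pUC19 (281 reads), and OAS1 was at 0 in all 5 libraries.

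IFIT1, IFIT2 and IFIT3 encode proteins with tetratricopeptide repeats that bind foreign RNA and interfere with its translation, and they lie next to each other on chromosome 10. IFIT1 (gene ID 3434, chr10:91152303-91166244, plus strand) had 176 reads in the DNMT1 library, 87 in DNMT3A, 71 in DNMT3B, 130 in EGFP and 253 in pUC19. These correspond to 3.07 TPM (2.63 to 3.56), 1.47 TPM (1.18 to 1.82), 1.36 TPM (1.06 to 1.72), 2.49 TPM (2.08 to 2.95) and 3.43 TPM (3.02 to 3.88). The DNMT3A and DNMT3B libraries were thus below the other 3, and their intervals did not overlap those of the others. The neighbours pUC19 and DNMT1, DNMT1 and EGFP, and DNMT3A and DNMT3B in that order overlapped within each pair. Against pUC19 the ratio of TPM was 0.430 in DNMT3A (0.333 to 0.551, adjusted p = 1.08e-12, exact conditional binomial test) and 0.397 in DNMT3B (0.301 to 0.519, adjusted p = 1.39e-14, same exact test). Both were called lower, where a call needs an adjusted p of at most 0.001 and a fold of at least 2 of TPM + 0.1. On that scale the log2 differences were -1.16 and -1.27. With a pseudocount of 1 TPM they became -0.84 and -0.91, and with an assumed coefficient of variation of 0.2 between libraries the adjusted p rose to 0.095 and 0.0529, so that neither call held under either setting. In EGFP the ratio to pUC19 was 0.726 (0.583 to 0.900, adjusted p = 0.0031, exact test) and in DNMT1 it was 0.896 (0.735 to 1.09, adjusted p = 0.47, exact test), and neither was called.

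IFIT3 (gene ID 3437, chr10:91087064-91137230, plus strand) had 35 reads in the DNMT1 library, 58 in DNMT3A, 39 in DNMT3B, 63 in EGFP and 56 in pUC19, or 1.11, 1.78, 1.36, 2.19 and 1.38 TPM. The EGFP library was highest and DNMT1 lowest, and each neighbouring pair in the order overlapped. The ratio of EGFP to pUC19 was 1.59 (1.09 to 2.32, adjusted p = 0.0413, exact test), below the fold threshold. The direction among the fusions was not that of IFIT1, since DNMT3A stood above pUC19 for IFIT3 (ratio 1.30, 0.882 to 1.91) and below it for IFIT1. IFIT2 (gene ID 3433, chr10:91043451-91069028, plus strand) was close to the detection limit with 3, 7, 3, 4 and 1 reads in the DNMT1, DNMT3A, DNMT3B, EGFP and pUC19 libraries. Its largest ratio to pUC19, in DNMT3A, was 8.76 with an interval of 1.13 to 395 and adjusted p = 0.06 (exact test), so at this depth a difference was not shown.

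ISG15 encodes a ubiquitin-like protein that is conjugated to other proteins after interferon. ISG15 (gene ID 9636, chr1:936518-949920, plus strand) had 29 reads in the DNMT1 library, 55 in DNMT3A, 44 in DNMT3B, 32 in EGFP and 67 in pUC19, or 3.42, 6.30, 5.70, 4.14 and 6.13 TPM. DNMT3A, pUC19 and DNMT3B were close together, and EGFP and DNMT1 were lower. The ratio to pUC19 was 0.557 in DNMT1 (0.348 to 0.874, adjusted p = 0.0219, exact test) and 0.674 in EGFP (0.428 to 1.04, adjusted p = 0.105, exact test), and neither was called. In DNMT3A and DNMT3B the ratios were 1.03 (0.706 to 1.49) and 0.930 (0.621 to 1.38).

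IFI6 encodes a mitochondrial and endoplasmic reticulum protein that limits apoptosis and flavivirus replication. IFI6 (gene ID 2537, chr1:27992575-27998723, minus strand) had 208, 205, 157, 169 and 214 reads in the DNMT1, DNMT3A, DNMT3B, EGFP and pUC19 libraries, or 19.5, 18.7, 16.2, 17.4 and 15.6 TPM. It varied least of the members with reads in every library, with a highest level 1.25 times the lowest. All 4 fusion libraries were nominally above pUC19, with ratios of 1.25 (1.03 to 1.52), 1.20 (0.985 to 1.46), 1.04 (0.840 to 1.28) and 1.12 (0.906 to 1.37). The smallest adjusted p was 0.0331 in the exact test for DNMT1, and none was called. With TMM scaling the DNMT1 value became 0.00367 (exact test), also not called. As a share of all reads instead of per length, pUC19 stood above DNMT3B.

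OAS1 and MX1 are antiviral effectors that in many cell types are among the genes most strongly raised by interferon. OAS1 (chr12:113343661-113371024, plus strand), an oligoadenylate synthetase, had 0 reads in each library, where the floor of 3 reads allows a level of up to 0.083 (pUC19) to 0.114 (EGFP) reads in 1000000. MX1 (gene ID 4599, chr21:42791947-42841998, plus strand), a dynamin-like GTPase, had 2 reads in DNMT3B, 2 in EGFP and 0 in the other 3 libraries. All 5 values were under the floor of 3 reads, so no fold is given for either gene.

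The sensors DDX58 and IFIH1 are themselves induced by interferon. DDX58 (gene ID 23586, chr9:32455300-32526206, minus strand) had 115 reads in the DNMT1 library, 131 in DNMT3A, 132 in DNMT3B, 161 in EGFP and 281 in pUC19. The levels were 1.95 TPM (1.61 to 2.34), 2.16 TPM (1.81 to 2.56), 2.46 TPM (2.06 to 2.92), 2.996 TPM (2.55 to 3.50) and 3.70 TPM (3.28 to 4.16). All 4 fusion libraries were below pUC19, and the intervals of the 3 methyltransferase fusions did not reach that of pUC19. The ratio to pUC19 was 0.527 in DNMT1 (0.421 to 0.657, adjusted p = 2.08e-08, exact test), 0.584 in DNMT3A (0.471 to 0.720, adjusted p = 2.19e-07, exact test), 0.665 in DNMT3B (0.537 to 0.821, adjusted p = 1.64e-05, exact test) and 0.809 in EGFP (0.662 to 0.985, adjusted p = 0.0344, exact test). Each of these was less than 2-fold, so DDX58 was not called. With an assumed coefficient of variation of 0.2 between libraries, the adjusted p in DNMT1, DNMT3A and DNMT3B rose to 0.466, 0.368 and 0.51 (edgeR exact test). IFIH1 (gene ID 64135, chr2:163123584-163175194, minus strand) had 22, 27, 18, 26 and 31 reads in the DNMT1, DNMT3A, DNMT3B, EGFP and pUC19 libraries, or 0.491, 0.586, 0.442, 0.637 and 0.537 TPM. The 5 intervals overlapped one another, and the 4 ratios to pUC19 ran from 0.822 to 1.18.

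Over the members, no gene was called higher in any fusion library than in pUC19. The background of genes called higher was 1.53% in DNMT1, 4.4% in DNMT3A, 4.47% in DNMT3B and 2.6% in EGFP. One member of 7 with reads in either library was called lower in DNMT3A, where 4.96% of all genes were, and 1 of 8 in DNMT3B, where 4.29% were, IFIT1 in both. None was called lower in DNMT1 (background 3.63%) or EGFP (background 3.1%). The tests compare pairs of libraries that share pUC19, not conditions, and have no replicate check. In these bulk samples fewer expressing cells and less RNA per cell cannot be told apart.

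**Figure D3:**
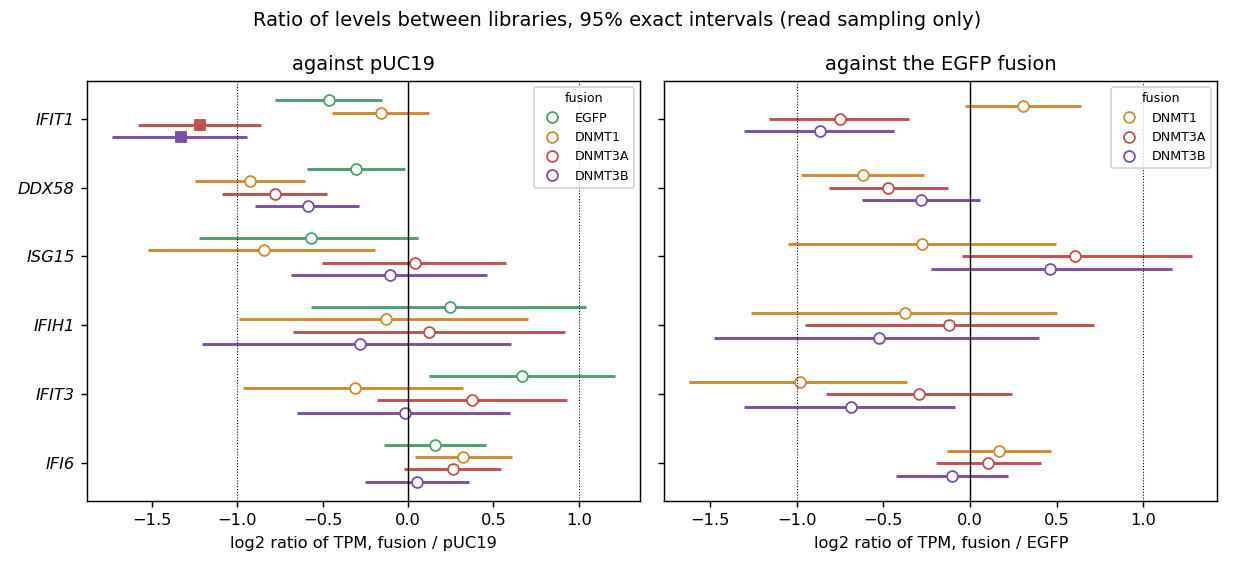
Ratio of TPM on a log2 scale for the 6 members with enough reads, each fusion against pUC19 (left) and each methyltransferase fusion against the EGFP fusion (right). Bars are 95% exact intervals for read sampling, filled squares are called genes, open circles are not called, and dotted lines mark a 2-fold change. The called values are those of IFIT1 in DNMT3A and DNMT3B against pUC19 (ratios 0.430 and 0.397).

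The EGFP fusion received the same guides and dCas9 without a methyltransferase domain, so each methyltransferase fusion was also compared with it. No member was called in either direction. The background was 0.473% higher and 0.966% lower in DNMT1, 2.02% and 1.95% in DNMT3A, and 2.09% and 1.42% in DNMT3B. IFIT1 again had the ratios with the smallest p, 0.593 in DNMT3A (0.447 to 0.784, adjusted p = 0.000591, exact test) and 0.548 in DNMT3B (0.404 to 0.737, adjusted p = 4.43e-05, exact test), both under 2-fold, against 1.23 in DNMT1 (0.979 to 1.56, adjusted p = 0.0805, exact test). IFIT3 was lower in DNMT1 than in EGFP with a ratio of 0.507 (0.325 to 0.778, adjusted p = 0.00784, exact test). DDX58 had ratios of 0.651 (0.508 to 0.833), 0.721 (0.568 to 0.914) and 0.822 (0.648 to 1.04) in DNMT1, DNMT3A and DNMT3B.

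To set these differences against a spread between libraries, the 4 fusions were taken as 1 group in an edgeR quasi-likelihood fit. In this fit the spread comes from 4 different constructs, and pUC19 is 1 library that is assumed to vary in the same way. Of the 6 members with enough reads, none passed an adjusted p of 0.05, and none was below an unadjusted p of 0.05. Among 16001 genes 0.737% passed. DDX58 had a log2 difference of -0.58 ± 0.29 (SE, adjusted p = 0.324, edgeR), IFIT1 of -0.64 ± 0.46 (SE, adjusted p = 0.484, edgeR) and IFI6 of 0.26 ± 0.28 (SE, adjusted p = 0.665, edgeR). Within the fusion group IFIT1 lay between 2.49 and 3.07 TPM in DNMT1 and EGFP and between 1.36 and 1.47 TPM in DNMT3A and DNMT3B. DESeq2 also passed no member.

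The second edgeR fit compared the DNMT3A and DNMT3B fusions, which carry de novo methyltransferase domains, with the DNMT1 and EGFP fusions, 2 libraries against 2. IFIT1 was lower in the DNMT3A and DNMT3B libraries, by a log2 difference of -1.03 ± 0.26 (SE, adjusted p = 0.0363, edgeR), and was the only 1 of 6 members to pass, where 11% of 15332 genes passed. Both DNMT3A and DNMT3B were below both of the others. The call was lost without the DNMT1 library (-0.79, adjusted p = 0.0527), without DNMT3A (-1.10, adjusted p = 0.259), without DNMT3B (-0.97, adjusted p = 0.259) and without the filter on low counts (-1.02, adjusted p = 0.0519), and it held without EGFP (-1.23, adjusted p = 0.00156, all edgeR). ISG15 went the other way, with 0.62 ± 0.33 (SE, adjusted p = 0.251, edgeR), and did not pass. IFIT3, DDX58, IFI6 and IFIH1 had differences between -0.17 and -0.10, none of which passed, and each changed sign when 1 of the libraries was left out.

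The genes around the members in the pathway were examined with 6 lists. Of their distinct genes, 3 of 119 were called higher and 2 lower in DNMT1 against pUC19, 7 and 3 of 118 in DNMT3A, 10 and 2 of 117 in DNMT3B, and 7 and 2 of 119 in EGFP. Over all genes the shares called higher and lower were 1.53% and 3.63% in DNMT1, 4.4% and 4.96% in DNMT3A, 4.47% and 4.29% in DNMT3B, and 2.6% and 3.1% in EGFP. In the edgeR fit of 4 fusions against pUC19 no gene of these 6 lists passed.

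Interferon ligands were close to absent. Of 21 ligand genes 14 had no read in any library, IFNB1 among them, and none was called. IFNA5 had 1, 10, 1, 5 and 7 reads in DNMT1, DNMT3A, DNMT3B, EGFP and pUC19. IFNG had 3 reads in the DNMT1 library and IFNA21 had 2 in EGFP, with none elsewhere. The IFNA genes are near-identical copies, so counting unique reads lowers their values. All 12 receptor and signalling genes were detected, and 1 was called higher in DNMT3A and in DNMT3B and 1 lower in DNMT1, DNMT3A and EGFP. Each is 8.33% of the list. Over all genes 4.4% and 4.47% were called higher in DNMT3A and DNMT3B, and 3.63%, 4.96% and 3.1% lower in DNMT1, DNMT3A and EGFP. IRF9, the DNA-binding part of that complex, had 5.18, 5.91, 6.58, 5.06 and 2.62 TPM in DNMT1, DNMT3A, DNMT3B, EGFP and pUC19 and was called higher in DNMT3A and DNMT3B. JAK2, a kinase of the interferon gamma receptor, had 1.12, 1.37, 1.29, 1.21 and 2.67 TPM and was called lower in DNMT1 and EGFP. JAK1, a kinase of all interferon receptors, had 37.2, 22.8, 29.7, 26.7 and 45.7 TPM in the same order and was called lower in DNMT3A.

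In the sensing pathway no gene was called in DNMT1 or DNMT3A, of 24 with reads. In each of DNMT3B and EGFP 1 of 24 was called higher (4.17%) and none lower. Over all genes 1.53%, 4.4%, 4.47% and 2.6% were called higher in DNMT1, DNMT3A, DNMT3B and EGFP. The shares called lower were 3.63%, 4.96%, 4.29% and 3.1%. The adaptor MAVS (19.7 to 26.1 TPM) and the kinase EIF2AK2 (25.9 to 29.9 TPM), which stops translation on sensing RNA, were expressed in every library. cGAS (listed as MB21D1) had 1 to 7 reads and STING (listed as TMEM173) 1.40 to 2.63 TPM. In the second edgeR fit TBK1 (0.58 ± 0.14, SE, adjusted p = 0.0297, edgeR), the kinase of IRF3, and TICAM1 (0.75 ± 0.21, SE, adjusted p = 0.049995, edgeR), the adaptor of TLR3, were higher in DNMT3A and DNMT3B, and the RNA-editing enzyme ADAR was lower (-0.66 ± 0.13, SE, adjusted p = 0.0175, edgeR), 3 of 19 genes where 11% of all genes passed.

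Among 55 other interferon-stimulated genes, 3 were called higher in DNMT1, 4 in DNMT3A, 6 in DNMT3B and 6 in EGFP, of 52 to 54 with reads, or 5.56%, 7.69%, 11.5% and 11.5%, beside 1.53%, 4.4%, 4.47% and 2.6% over all genes. One was called lower, in DNMT3A. The median log2 difference of the 32 genes of at least 1 TPM on average was 0.07, -0.01, 0.11 and 0.17, beside -0.14, -0.02, -0.01 and 0.00 over all genes of that level. OAS3, a relative of OAS1 next to it on chromosome 12, was called higher in all 4 fusion libraries, with 68, 44, 86 and 90 reads in DNMT1, DNMT3A, DNMT3B and EGFP against 18 in pUC19 (0.826, 0.520, 1.15, 1.20 and 0.170 TPM). ISG20, an exonuclease, had 34, 49, 34, 16 and 9 reads and was called higher in the 3 methyltransferase fusions. HELZ2, a nuclear helicase and coactivator, had 5.86, 8.38, 8.66, 6.65 and 3.20 TPM and was called higher in DNMT3A, DNMT3B and EGFP. BST2, which tethers virus particles to the cell, had 14, 4, 12, 24 and 34 reads and was called lower in DNMT3A. OAS2 (0.387 to 0.631 TPM) and RSAD2 (0.291 to 0.571 TPM), both commonly used as interferon reporters, were highest in EGFP and pUC19 respectively and were not called. CXCL10 and CXCL11, chemokines induced by interferon, had 2 and 5 reads in pUC19 and none in the fusion libraries. In the second edgeR fit IFI44L (-1.71 ± 0.42), PARP10 (-2.29 ± 0.56), NMI (-1.38 ± 0.37) and XAF1 (-0.85 ± 0.22) were lower in DNMT3A and DNMT3B and IFIT5 (0.86 ± 0.21) and TRIM21 (0.74 ± 0.19) higher (log2 differences with SE), 6 of 40 genes where 11% of all genes passed. IFIT5, a relative of IFIT1, thus differed in the direction opposite to IFIT1. PARP10 had 22, 4, 4, 16 and 15 reads in DNMT1, DNMT3A, DNMT3B, EGFP and pUC19, so its values in DNMT3A and DNMT3B were near the floor. In the same order NMI had 2.21, 1.05, 1.06, 3.13 and 1.17 TPM and XAF1 5.66, 3.06, 3.08, 4.99 and 3.60 TPM. IFI44L had 0.590, 0.187, 0.151, 0.481 and 0.394 TPM.

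Of 16 NF-kB target genes 1 was called higher in DNMT3A and in DNMT3B and none in DNMT1 and EGFP, and of 14 negative regulators at most 1 was called higher and 2 lower in any fusion. Over all genes 1.53%, 4.4%, 4.47% and 2.6% were called higher in DNMT1, DNMT3A, DNMT3B and EGFP. The shares called lower were 3.63%, 4.96%, 4.29% and 3.1%. TNFAIP3, which encodes the NF-kB inhibitor A20, had 4.08, 10.7, 10.2, 4.14 and 4.43 TPM in DNMT1, DNMT3A, DNMT3B, EGFP and pUC19 and was called higher in DNMT3A and DNMT3B. SOCS3, an inhibitor of cytokine receptor signalling, had 29, 46, 46, 11 and 22 reads and was called higher in the same fusions. NLRC5, a regulator of MHC class I genes, was called lower in all 4 fusions, with 9, 13, 18 and 7 reads against 87 in pUC19. The phosphatase PTPN6 had 16, 19, 8, 14 and 42 reads and was called lower in DNMT3B. TNFAIP3 (1.29 ± 0.17, SE, adjusted p = 0.00488, edgeR) and ATG5 (0.86 ± 0.19, SE, adjusted p = 0.026, edgeR) passed in the second edgeR fit. They were 1 of 9 NF-kB targets and 1 of 13 negative regulators tested, where 11% of all genes passed. Without the DNMT3A library this fit passed 18 genes in all and without DNMT3B 53, against 1694 with both.

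**Figure D4:**
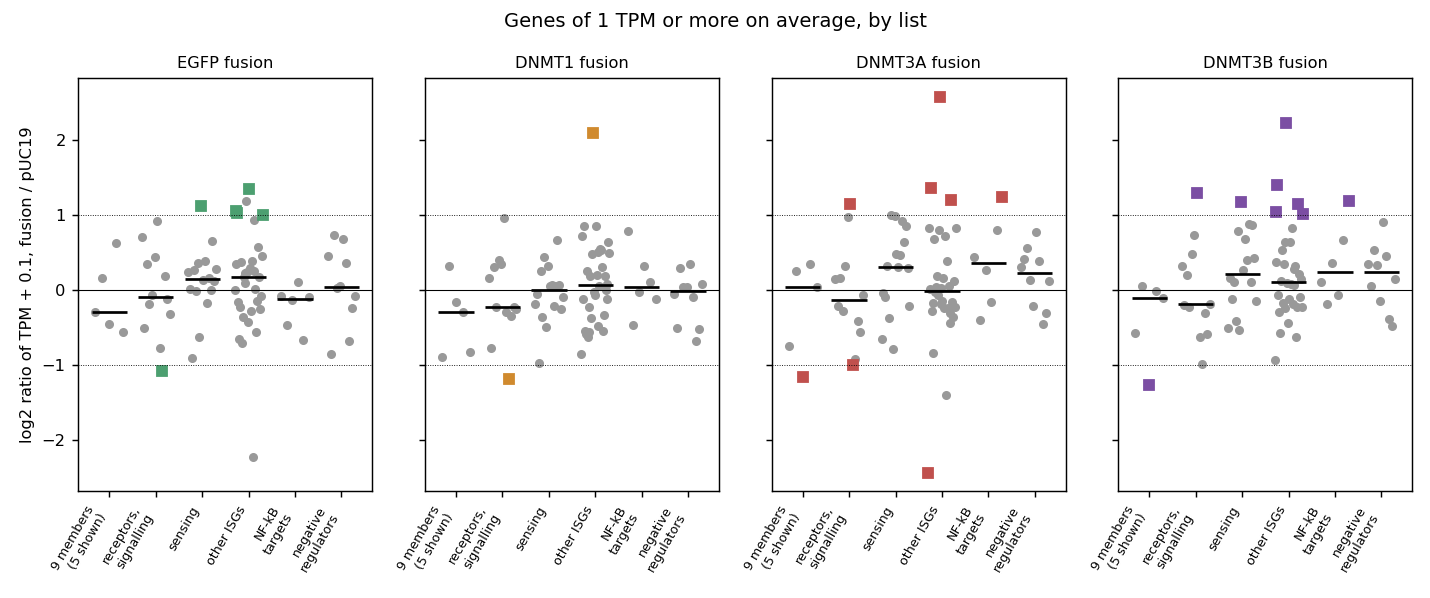
Log2 ratio of TPM + 0.1 between each fusion library and pUC19 for genes of at least 1 TPM on average, in 6 groups of genes; no ligand reached that level. Each dot is a gene, coloured squares are called genes, black bars are group medians and dotted lines mark a 2-fold change. Of the 5 members shown, IFIT1 is the square below the lower line in DNMT3A and DNMT3B, and no member lies above the upper line.

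The genes whose levels ran most nearly in parallel with the member of highest level and with each sensor over the 5 libraries were found among 13921 genes of at least 1 TPM, by the root mean square difference of centred log2(TPM + 0.1). For IFI6 these were RPS20 (0.0244), PSMD4 (0.0321) and RPL32 (0.0322), 2 ribosomal proteins and a proteasome subunit. For DDX58 they were C9orf41 (0.0375), MFAP3 (0.0451) and NS3BP (0.0540). C9orf41, for example, had 14.8, 16.2, 17.4, 21.1 and 26.5 TPM in DNMT1, DNMT3A, DNMT3B, EGFP and pUC19. For IFIH1 they were KIAA1143 (0.00886), IQCG (0.0207) and TNFRSF11A (0.0346). All are genes of the same 5 libraries, and no test was made.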

How the data were processed

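The authors fragmented poly(A) RNA from BFP-sorted HEK293T cells, selected cDNA of about 240 bp, amplified it over 12 PCR cycles and sequenced it on an Ion Proton. Reads were aligned with tmap to hg19 RefSeq RNA (GRCh37), and unique reads were kept. Whether counting used strand, and the tool versions, are not given in the sources used here. The read counts deposited by the authors are whole numbers per gene. The TPM deposited by the authors divide these by gene length, and recomputing them gave the same values. The deposited coverage in percent of each transcript was looked at and not used in a test. Genes missing from a table were set to 0.

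Groups came from the sample titles. Reads of each pair of libraries were compared by an exact conditional binomial test (two-sided) given their read totals, not on the TPM scale of the printed ratios. Benjamini-Hochberg adjustment was over the genes with reads in the pair. A gene was called if its adjusted p-value did not exceed 0.001 and TPM + 0.1 differed at least 2-fold, a scale that understates the change of low genes. edgeR 4.0.16 (R 4.3.3, TMM, filterByExpr, quasi-likelihood test) was used at an adjusted p-value below 0.05. The SE given with edgeR differences was derived, as the absolute log2 difference divided by the square root of the F statistic of that test. Totals were 26250000 to 36140000 reads. Scripts were tested on simulated counts. Alternatives were another pseudocount, TMM scaling, totals without the DNMT rows, an assumed coefficient of variation, a minimum level, another threshold, thinning, DESeq2 1.42.0, median-ratio factors, no filter, a GC and length correction (span 0.3, for the 97.4% of genes with a value) and leaving out each fusion.

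All 9 members were named. From each other list up to 3 genes per direction called in the most fusions were named, and, where none was called, the 3 with the highest level. ISG-list, sensing and regulator genes that passed the second edgeR fit, and MAVS, EIF2AK2, MB21D1, TMEM173, OAS2, RSAD2, CXCL10, CXCL11 and the ligands without reads, were named after their values were seen. LYZ (6.83 to 10.1 TPM) and CD68 (3.18 to 5.93 TPM) were among the blood markers of highest level, and no blood marker was called against pUC19. Some genes that the rule selects are not reported here. The members and lists were chosen with earlier results of these data known. Promoter sequences are from RefSeq and positions from GENCODE v44 on GRCh37, with computations in scipy 1.17.1, numpy 2.4.6 and pandas 2.3.3.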

Additional observations from a re-analysis of the deposited data

Results flagged for a closer look

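The level of IFIT1 differed between fusion libraries, with 1 library per construct. Its log2 difference between the DNMT3A and DNMT3B libraries and the DNMT1 and EGFP libraries was -1.03 (adjusted p = 0.0363, edgeR quasi-likelihood test, 2 libraries against 2), with both of the former below both of the latter. IFIT1 was the only 1 of 6 members to pass, where 11% of 15332 genes passed. The call was lost without the filter on low counts. It did not pass without the DNMT1 library (adjusted p = 0.0527, edgeR), without DNMT3A (0.259) or without DNMT3B (0.259).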

How the results depend on the processing

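IFIT1 gave all the calls among members, and they depended on the settings. With a pseudocount of 1 TPM, and with an assumed coefficient of variation of 0.2, the number of members called lower than pUC19 went from 1 to 0 in DNMT3A and in DNMT3B. In the second edgeR fit it went from 1 to 0 without the filter and ranged from 0 to 1 when each fusion was left out. The call held with DESeq2 (adjusted p = 0.0233), median-ratio factors (0.0355) and the GC and length correction (0.0362). No alternative called a member higher. Of the members' log2 differences recomputed across settings, leaving out pairs with at most 3 reads in both libraries, 397 kept their direction and side of the threshold, 8 lost the threshold, all of IFIT1, and 8 that had not passed changed sign. Thinning gave 0.19 for IFIT3 and 0.056 for ISG15 in DNMT3B against pUC19. When each fusion was left out in turn, IFIH1 ranged from -0.016 to 0.13 in the first edgeR fit. In the second, IFIT3 ranged from -0.46 to 0.39, IFI6 from -0.28 to 0.022, DDX58 from -0.36 to 0.12 and IFIH1 from -0.40 to 0.016. TMM scaling moved the median of all genes of at least 1 TPM by 0.13 (log2) for DNMT1 against pUC19 and by 0.14 against EGFP. It turned no member's direction. For DNMT1 against pUC19 it moved IFI6 from 0.32 to 0.45 (adjusted p = 0.00367, exact test). ISG15 moved from -0.82 to -0.70 (adjusted p = 0.0551, exact test) and DDX58 from -0.89 to -0.77 (adjusted p = 1.21e-06, exact test), and none was called. Over all genes the number called against pUC19 ranged over the settings from 39 to 1406 in DNMT1, 136 to 2195 in DNMT3A, 117 to 2119 in DNMT3B and 59 to 1472 in EGFP, and against EGFP from 7 to 586, 12 to 1177 and 9 to 1067. The edgeR fits passed 65 to 977 and 18 to 3850 genes. Depth limits IFIT2, MX1 and OAS1, where at most 7 reads were found. No paired analysis was possible because each group had 1 library and the labels carry no shared replicate numbers. The cause of these changes was not tested.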
